A study of Mus musculus with 8 samples.

Results

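Dpp7, Xpnpep1 and Tpp2 encode 3 peptidases that trim short peptides from the N-terminus, and all 3 are listed with splicing that differed between mouse hepatocytes given AAV-Cre and AAV-GFP. They were taken by name from 2 deposited tables of splicing, which together name 638 genes. The table of local variations groups the junctions that meet at 1 exon and gives each its PSI, the expected share of the splicing at that exon, from 0 to 1. It held 5 of its 862 variations in these genes (3 in Dpp7, 1 each in Xpnpep1 and Tpp2). The other table, of junction usage, held 4 of its 498 events in them. The genes were chosen by the size of these same changes, so the values below are a description and none is a test.

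The cells were cultured hepatocytes, which make up most of the liver's mass. Every donor mouse was C57BL/6J with both Srsf3 alleles floxed, so the control cells carry the floxed alleles too. In the 4 AAV-Cre libraries (genotype label Srsf3-KO) an adeno-associated virus delivered Cre recombinase, and in the 4 AAV-GFP libraries (genotype label Srsf3-flox) it delivered green fluorescent protein; RNA was taken after 48 h. Nothing in the labels says whether libraries of a group came from separate mice, which promoter drove Cre, or what share of the cells was infected; the authors' p-values may then measure technical spread. Both tables give 1 value per group or per comparison, so depth and the spread between libraries are unknown and no error can be attached to a value. Splicing tables hold no expression levels, so the labelled cell type was not checked against its markers. None of 5 hepatocyte marker genes had a listed event, and of 11 markers of other liver cells only Cd68 of macrophages had one. Srsf3 itself, which checks the labels, joined exon 1 to exon 2 at a PSI of 0.157 in AAV-Cre and 0.998 in AAV-GFP, in the authors' deposited table.

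SRSF3, the protein that the floxed gene encodes, is an SR protein: its RNA recognition motif binds short pyrimidine-rich stretches, and its RS domain helps to recruit the spliceosome to nearby splice sites. Dipeptidyl peptidase 7 (Dpp7, also called DPP2 or quiescent cell proline dipeptidase) is a serine peptidase of lysosomes and vesicles that removes dipeptides after proline or alanine. X-prolyl aminopeptidase 1 (Xpnpep1, aminopeptidase P1) is a cytosolic metallopeptidase that removes an N-terminal residue in front of proline, as in bradykinin. Tripeptidyl peptidase 2 (Tpp2) is a very large cytosolic subtilisin-like complex that takes tripeptides from peptides released by the proteasome.

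The alternative exons are shown 5′ to 3′ from GENCODE vM21 transcripts, whose build is that of mm10. Capitals mark CATC, a motif that the RNA recognition motif of SRSF3 is known to bind, searched on the sense strand only. The first is exon 9 of Dpp7 (chr2:25353608-25353726, minus strand, 119 nt), the second exon 2 of Xpnpep1 (chr19:53032009-53032097, minus strand, 89 nt) and the last exon 24 of Tpp2 (chr1:43985416-43985454, plus strand, 39 nt).
Dpp7 exon 9: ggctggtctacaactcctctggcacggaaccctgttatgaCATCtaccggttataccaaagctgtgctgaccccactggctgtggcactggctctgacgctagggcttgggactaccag
Xpnpep1 exon 2: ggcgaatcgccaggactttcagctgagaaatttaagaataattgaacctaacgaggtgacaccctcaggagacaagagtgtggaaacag
Tpp2 exon 24: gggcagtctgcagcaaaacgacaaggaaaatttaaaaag

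Dpp7 exon 9, used less in AAV-Cre, held CATC 1 time, whereas the exons of Xpnpep1 and Tpp2, joined more in AAV-Cre, held it 0 times. Only the exon forms printed above were searched, so intron bases and longer annotated forms of the Xpnpep1 exon were left out. Of all internal coding exons within 5 nt of the same length, 46.7% held the motif at the length of the Dpp7 exon, 36.6% at that of Xpnpep1 and 15.5% at that of Tpp2. A match or its absence is a description of these letters and says nothing of binding. The exons also differed in composition. The Dpp7 exon had 57.1% G and C, above 79.7% of the 162817 internal coding exons, the Xpnpep1 exon had 46.1%, above 29.5% of them, and the Tpp2 exon had 41.0%, above 13.0% of them. Adenine alone made up 46.2% of the Tpp2 exon, 36.0% of the Xpnpep1 exon and 19.3% of the Dpp7 exon. In length, 47.5%, 25.5% and 2.65% of internal coding exons were as short as or shorter than the exons of Dpp7, Xpnpep1 and Tpp2, in that order.

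Dpp7 showed the widest gap between the groups. In hepatocytes with AAV-Cre most splicing from exon 8 or into exon 10 of Dpp7 bypassed exon 9, while with AAV-GFP nearly all included it. In the authors' deposited table the junction from exon 8 into exon 9 had an expected PSI of 0.162 in AAV-Cre and 0.954 in AAV-GFP. The one from exon 8 to exon 10 had 0.838 in AAV-Cre and 0.046 in AAV-GFP in the authors' deposited table. Read from exon 10, the authors' deposited table gave exon 9 a PSI of 0.227 in AAV-Cre and 0.958 in AAV-GFP, and skipping a PSI of 0.769 in AAV-Cre and 0.035 in AAV-GFP. The readings from both ends of the exon thus lay apart by 0.065 in AAV-Cre and 0.004 in AAV-GFP. The authors' deposited table put the expected change of inclusion (AAV-Cre minus AAV-GFP) at -0.816 from exon 8 and -0.753 from exon 10. By their most changed junction these variations ranked 44 and 54 among the 862 listed. The intron of 91 nt between exons 9 and 10 was hardly retained in either group, with a PSI of 0.004 in AAV-Cre and 0.007 in AAV-GFP in the authors' deposited table.

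The splice sites of Dpp7 exon 9 could be read from a noncoding processed transcript that runs through them, and are shown because they are the sites that AAV-Cre cells used less. Capitals mark the AG and GT at the intron ends. The intron bases before the AG also hold a CATC, left in lower case because only exons were searched for it. The 3′ site lies at chr2:25353722-25353746 and the 5′ site at chr2:25353588-25353612, each with 20 bases of intron and 5 of exon.
Dpp7 exon 9 3′ splice site: ccagcactaatcccatccAGggctg
Dpp7 exon 9 5′ splice site: accagGTttgtggacagagaggagc

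The exon lies between an intron of 506 nt upstream and the one of 91 nt downstream. It spans codons 321 to 360 of the 506 codons of the principal coding transcript, which has 13 exons. Its 119 nt are not a multiple of 3, so joining exon 8 to exon 10 shifts the frame. The first in-frame stop of that form is codon 330, which lies in exon 10, 26 nt past the new junction and 264 nt before the last exon junction. The form without exon 9 would thus have a frame of 329 codons, and shares its sequence with the full protein up to the end of exon 8. The sequence below gives the last 20 bases of exon 8, then exon 10 up to that stop, which is in capitals (chr2:25353488-25354252 without the skipped stretch).
Dpp7 exon 8 joined to exon 10: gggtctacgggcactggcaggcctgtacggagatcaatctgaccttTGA

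The annotation holds the skipping junction in 1 transcript, which it classes as a processed transcript without a coding sequence, while 3 transcripts hold the junction from exon 8 into exon 9. A stop codon well upstream of the last junction is a feature that can send an mRNA to nonsense-mediated decay. A PSI counts the RNA present, so the rate of splicing and the rate of decay of a form cannot be told apart in it. In bulk RNA, a shift in every cell and a switch in some of the cells cannot be told apart either. No other gene has an annotated exon across exons 8 to 10 or 2 to 6 of Dpp7.

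**Figure D1:**
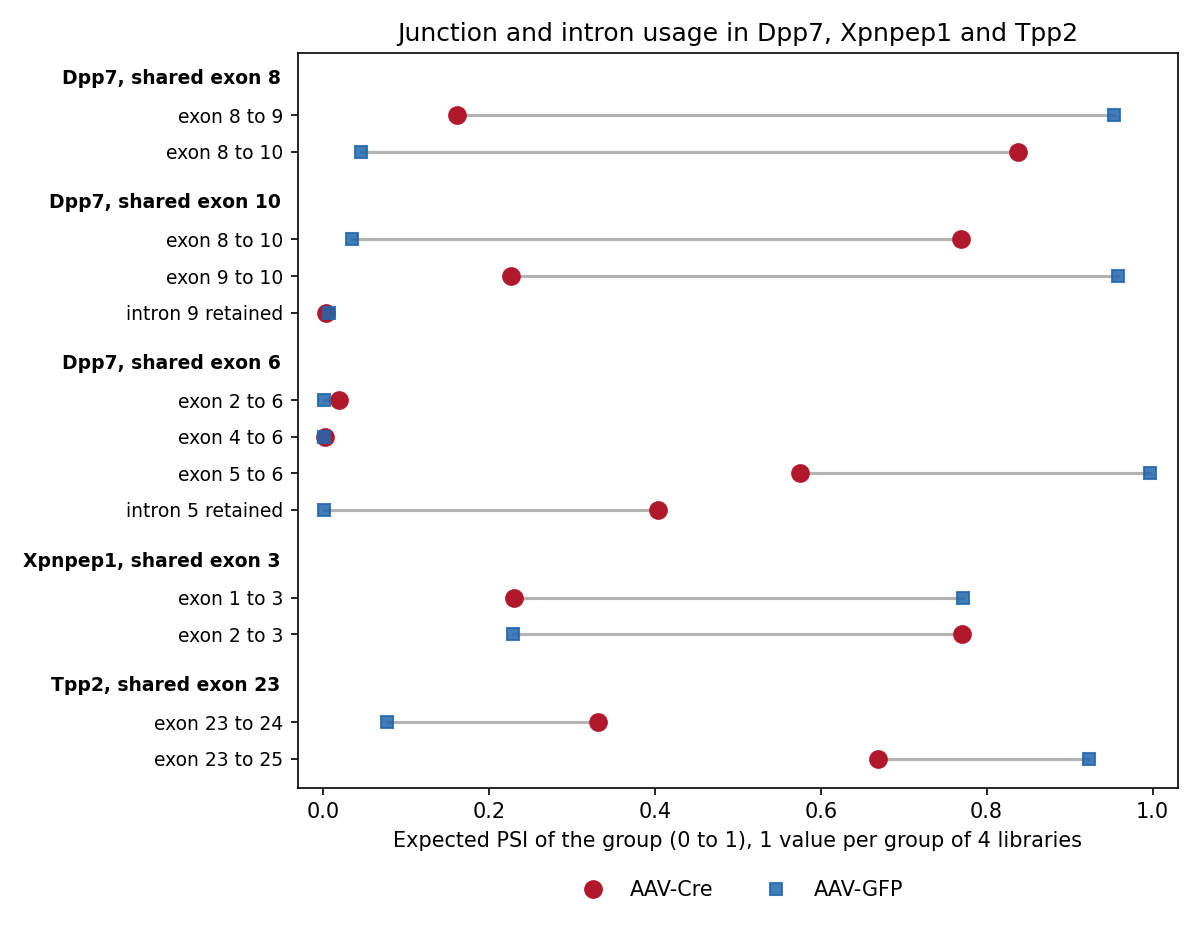
Expected PSI of each junction or retained intron (x axis, 0 to 1) in AAV-Cre (red circles) and AAV-GFP (blue squares), by variation, with 1 value per group of 4 libraries and no error available. The groups lie far apart for exon 9 of Dpp7 (0.162 in AAV-Cre and 0.954 in AAV-GFP, from exon 8) and nearer in Tpp2 (0.331 in AAV-Cre and 0.077 in AAV-GFP, into exon 24).

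A further variation of Dpp7 concerned the features that enter exon 6 (chr2:25354741-25354822). Retention of intron 5, which is 70 nt long (chromosome 2, 25354823 to 25354892), had a PSI of 0.404 in AAV-Cre and 0.001 in AAV-GFP in the authors' deposited table. Splicing of exon 5 to exon 6 stood at 0.575 in AAV-Cre and 0.997 in AAV-GFP in the authors' deposited table, and this variation ranked 284 by size. The expected changes in the authors' deposited table were 0.389 for the intron and -0.412 for the junction. No variation that leaves exon 5 was listed, so the intron was read from exon 6 only. Direct joining of exon 4 to exon 6 was at 0.003 in AAV-Cre and 0.001 in AAV-GFP, and that of exon 2 to exon 6 at 0.019 in AAV-Cre and 0.001 in AAV-GFP, in the authors' deposited table. Of these 4 features 2 are annotated: the junctions from exon 5 and from exon 4. Rescaled over those 2 alone, the junction from exon 5 had 0.995 in AAV-Cre and 0.999 in AAV-GFP, a difference of -0.004. The gap at exon 6 thus lay mainly in the retained intron. For the junction from exon 2 the expected change in the authors' deposited table was 0.001.

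The retained intron is among the shortest in the annotation, where 0.262% of 209514 introns of coding transcripts were as short or shorter and the median was 1408 nt. No annotated transcript of Dpp7 holds this intron inside an exon. Its length is not a multiple of 3, so the frame after exon 5 would shift by 1 base unless a stop came first; its bases were not analysed here. Exon 5 ends at codon 217. The active-site serine of this family sits in a Gly-x-Ser-x-Gly motif, which occurs 1 time in the principal reading frame, with the serine at codon 172, split between exons 4 and 5. That serine therefore lies upstream of both the retained intron and exon 9. Only this motif was searched for, so the place of the other active-site residues was not read. Whether either altered form keeps an active enzyme was not measured. Whether the same Dpp7 molecules retained intron 5 and lost exon 9 cannot be told from junctions of separate variations.

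**Figure D2:**
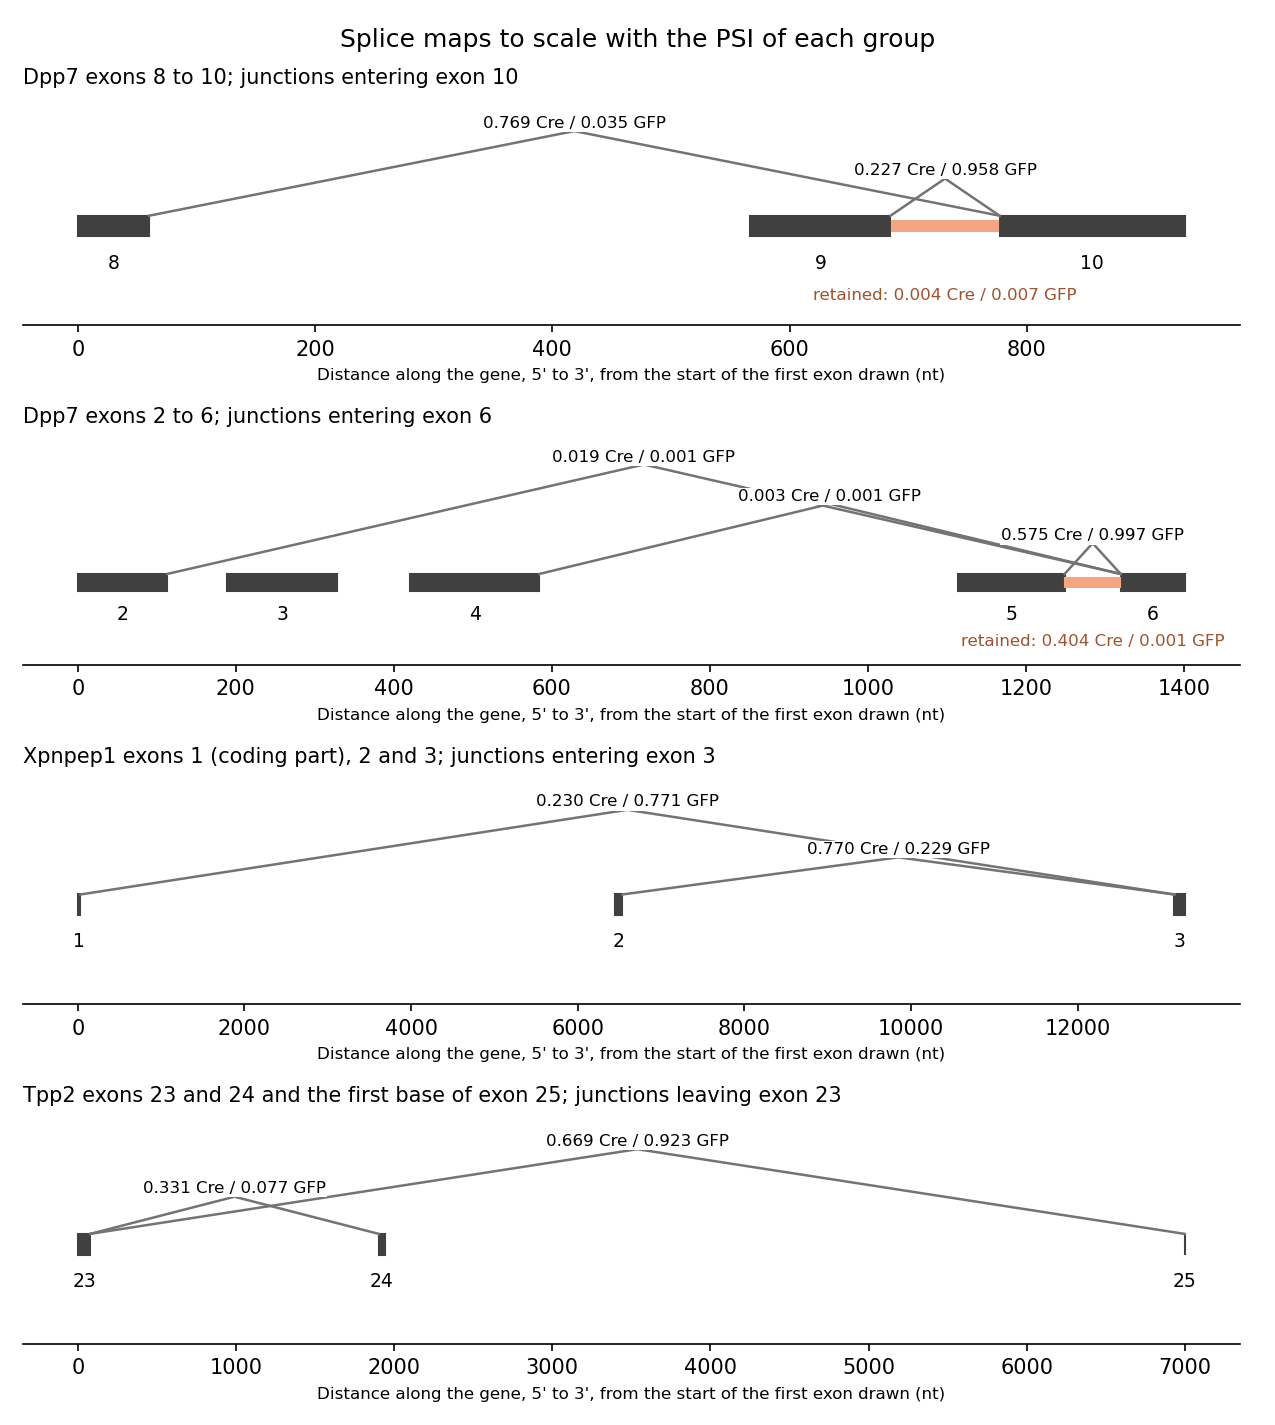
Exons (dark boxes) are numbered as in the coding transcript used for each gene. Junctions (grey lines) and listed introns (orange) are drawn to scale, with distance in nt on each x axis. The expected PSI of AAV-Cre and then AAV-GFP is on each junction. Intron 5 of Dpp7 was retained at 0.404 in AAV-Cre and 0.001 in AAV-GFP, while intron 9 was at 0.004 in AAV-Cre and 0.007 in AAV-GFP.

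Xpnpep1 differed between the groups at its 5′ end. Its exon 3 (chr19:53025259-53025383) was joined mainly from exon 2 in AAV-Cre and mainly from exon 1 in AAV-GFP. In the authors' deposited table the junction from exon 2 had a PSI of 0.770 in AAV-Cre and 0.229 in AAV-GFP. The one from exon 1 had 0.230 in AAV-Cre and 0.771 in AAV-GFP in the authors' deposited table. The expected change (AAV-Cre minus AAV-GFP) of joining from exon 2 was 0.555 in the authors' deposited table, which ranked 154 among the 862 variations. The values of the groups are thus nearly mirror images.

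The junction from exon 2 does not show on its own that exon 2 was included as a cassette exon. Of 7 annotated transcripts that hold it, 4 use the exon as an internal exon of 89 nt and 3 begin in it, with a first exon of 137 or 138 nt. Of the 4 internal uses, 2 are coding. Of those 3, 1 is tagged as having a transcript start supported by CAGE, a method that maps capped 5′ ends. No listed local variation holds a junction from exon 1 into exon 2. Exon inclusion and a start of transcription at exon 2 therefore cannot be told apart by this variation. An antisense RNA gene, 1700054A03Rik, has an annotated exon on the opposite strand within intron 1; the libraries were stranded, per the labels.

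The frames of the annotated forms differ by where they begin. The coding transcript used here for exon numbers has 21 exons. Its start codon in exon 1 leads through exon 2 (codons 11 to 41) to a protein of 666 codons. A start codon in exon 3, at position 53025375 and 8 nt into that exon, opens a frame of 623 codons, as annotated for the transcript with the CAGE-supported start. With exon 2 included these starts are 129 nt apart and in frame with each other. With exon 1 joined straight to exon 3 they are 40 nt apart and out of frame. The frame from exon 1 then ends after 59 codons at a stop in exon 4, which lies 1603 nt before the last exon junction. Both annotated transcripts with the direct junction are classed under nonsense-mediated decay, read from the exon 1 start. The sequence of that short frame shows both starts and the stop in capitals (chr19:53014652-53038545, introns and exon 2 left out).
Xpnpep1 exon 1 joined to exon 3: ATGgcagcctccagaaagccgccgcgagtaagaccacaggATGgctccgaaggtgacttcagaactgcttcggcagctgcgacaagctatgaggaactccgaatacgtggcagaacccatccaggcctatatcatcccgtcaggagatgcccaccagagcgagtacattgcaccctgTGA

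The second ATG in this sequence is the start of the 623-codon frame, so the form that prevailed in AAV-GFP holds a short frame that overlaps the start of the long one. Which start codon was used was not measured. The enzyme's metal-binding catalytic part lies in the C-terminal part of the protein, downstream of both starts.

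By junction usage Xpnpep1 was listed 2 times. A composite event over the same 5′ part (q = 0.301) carried 6 values in the authors' deposited table, of which 4 were not finite and the others were -0.214 and 0.214. The table does not say which junction each value belongs to, so no direction is read from it. Its listed splice sites include the upstream end of exon 2 at 53032097, the end of exon 1 (as 53038512) and a further site at 53032623, within intron 1. Which of these were joined to each other is not stated. The other event was an alternative 3′ splice site of the last exon, exon 21, downstream of the donor of exon 20. Its sites were 52991259, absent from vM21, and the annotated 52991719, and the authors' deposited table gave changes of 0.198 and -0.198 (q = 0.333). The table does not say which value belongs to which site, so no direction is read here either. The sites are 460 nt apart. All 126 coding nt of exon 21 in the transcript used for exon numbers, which are 42 codons, lie between them.

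**Figure D3:**
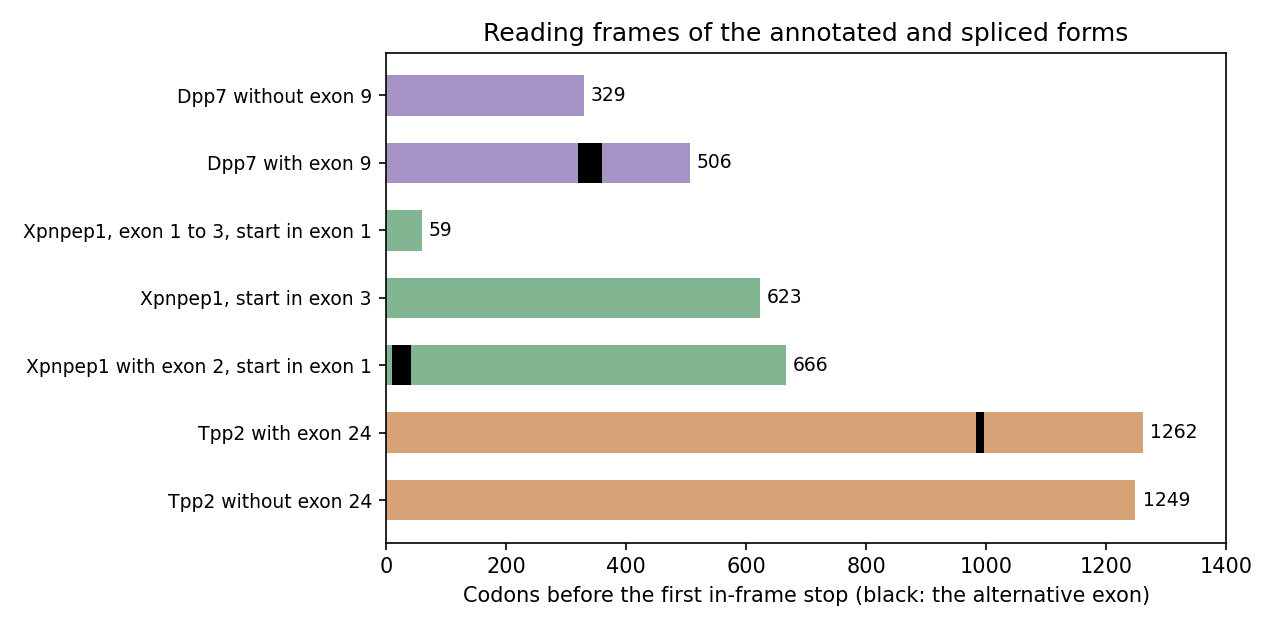
Codons before the first in-frame stop (x axis, linear, from 0) for forms of Dpp7, Xpnpep1 and Tpp2, computed from vM21 transcripts; black blocks are the codons of the alternative exon. Without exon 9 the Dpp7 frame has 329 of 506 codons, while Tpp2 has 1262 with exon 24 and 1249 without it.

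Tpp2 differed least, by an exon that keeps its frame. In the authors' deposited table the junction from exon 23 into exon 24 had a PSI of 0.331 in AAV-Cre and 0.077 in AAV-GFP. The junction that skips to exon 25 had 0.669 in AAV-Cre and 0.923 in AAV-GFP in the authors' deposited table, so skipping was the main form in both groups. The expected change of inclusion was 0.254 in the authors' deposited table, which ranked 636 among the 862 listed variations. The cassette event of junction usage covered the same exon and gave 0.225 (p = 0.000896, q = 0.0867) in the authors' deposited table.

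Exon 24 starts on a codon boundary, after 2952 coding nt, and its 13 codons (985 to 997) enter without a frame shift. Both resulting proteins, of 1262 and 1249 codons, are annotated as coding. Of the annotated transcripts, 2 hold the junction into exon 24 and 3 the junction past it. The exon sits between introns of 1823 and 5056 nt, in the C-terminal part, far from the subtilisin-like active site in the N-terminal part of the protein.

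Set against the background, all 5 local variations of the 3 genes passed a size of 0.2 for their most changed junction, but so did 95.2% of all 862, and nothing is read from that count. None of the 4 junction-usage events had a q-value of 0.05 or less with a change of at least 0.1, a rule that 11.4% of all 498 events met. Their q-values in the authors' deposited table were 0.0867 for Tpp2, 0.186 for the cassette exon 9 of Dpp7, and 0.301 and 0.333 for Xpnpep1. For that exon of Dpp7 the authors' deposited table gave a change of -0.433 (p = 0.00321), lower in AAV-Cre as in the local variations, where the size was 0.816 from exon 8. Intron 5 of Dpp7 was not among the listed junction-usage events, which are those with p under 0.05.

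Related peptidase genes are given as counts only, since the tables do not say which genes could have been listed. Of 15 proline-specific and tripeptidyl peptidase genes, 4 had an event in either table: the 3 above and Dpp8, a cytosolic dipeptidyl peptidase, which had an alternative 5′ splice site event with a change of 0.216 in size (q = 0.589, not past 0.05; direction not read) in the authors' deposited table. Of a further list of 21 genes, mostly of aminopeptidases and dipeptidases, none had an event in either table. Among 13 lysosomal protease genes only Ctsz, cathepsin Z, was listed, with a cassette exon at -0.00322 (q = 0.419) in the authors' deposited table. Among 17 genes of the proteasome core only Psma3, an alpha subunit, was listed, with a cassette exon at 0.0161 (q = 0.236) in the authors' deposited table. A gene that was not listed may have been unchanged or not measured. The 3 genes above were chosen for their listed changes, so the first count is not set against the others. The share of all annotated genes that were listed is not given here.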

How the data were processed

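Per the labels' protocols, the mRNA libraries were stranded and paired-end. FastQC, STAR and the build mm10 are named in the submitters' processing notes, with no versions or roles. The deposited table of local variations is laid out like MAJIQ's VOILA output, per the file headers, with 1 expected PSI per group for each junction on a scale of 0 to 1. Its deposited change ran as AAV-GFP minus AAV-Cre (Pearson r = 0.996 against the group PSI over 6866 junctions) and its sign was turned. Its column headed as a probability of change was not used: for the mirror-image junctions of Dpp7 exon 9 it gave 1 and 0.000284. JUM gave the other deposited table, per the file headers, which holds events with p under 0.05, with p-values, q-values and the change of PSI as AAV-Cre minus AAV-GFP.

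All rows of the 3 genes were taken, which is the rule for named genes, together with Srsf3 and listed genes of the peptidase lists. Genes and lists were chosen with earlier results of these data known. Exon numbers, frames and sequences came from GENCODE vM21, exon and intron shares from its basic coding transcripts. The helper functions for sequences and frames were tested on simulated transcripts. Splice sites in the JUM table lie up to 2 nt off the annotated exon ends. Python 3.11.15, numpy 2.4.6 and matplotlib 3.10.9 were used.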

Additional observations from a re-analysis of the deposited data

How the results depend on the processing

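No paired analysis was possible because neither table holds values per library; for the same reason no library could be left out. For exon 9 of Dpp7 (-0.816), reading it from its other end gave -0.753 and junction usage gave -0.433; the cause of these gaps was not tested. The difference of the group PSI lay within 0.05 of the expected change for exon 9 and the junction from exon 5 to exon 6 of Dpp7, for Xpnpep1 and for Tpp2, as did junction usage for Tpp2 (0.225). Every junction of the variations read for Dpp7 exon 9, Xpnpep1 and Tpp2 is annotated, so keeping annotated junctions only left nothing out there. For the junction from exon 5 to exon 6 of Dpp7 (-0.412), an alternative chosen after seeing the data, it left -0.004, since the retained intron is not annotated. Xpnpep1 and Tpp2 had no second variation to read, and the junction-usage value of Xpnpep1 could not be assigned to a junction. At a size of at least 0.3, 4 of the 5 variations passed. The share of all listed variations past that size is not given here, so nothing is read from that count. At p below 0.05 in place of the q-value, with a change of at least 0.1 still required, all 4 junction-usage events passed. That rule was met by 64.5% of all events. Every listed event has p under 0.05, so only the size of the change could fail, and nothing is read from this count. Depth is unknown and limits every value.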
